A study of Bos taurus with 30 samples.

Results

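The miR-26 family of the bovine hypothalamic arcuate nucleus (ARC) has 3 members among the known bovine miRNAs, bta-miR-26a, bta-miR-26b and bta-miR-26c (bta, Bos taurus). They were chosen by name, as 3 of the 1030 mature miRNAs in the deposited table, and were followed across 30 small RNA libraries, 1 per calf. All calves were Holstein-Friesian bulls that were fed differently from 2 to 12 weeks of age. The 15 HI calves received 1.5 kg of milk replacer in 10 litres per day with concentrates to appetite, and the 15 MOD calves received 0.5 kg of milk replacer in 4 litres per day with 0.5 kg of concentrates. Each library was made from the whole dissected region at 12 weeks of age, so that fewer cells of a type and less RNA per cell cannot be told apart.

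A miRNA is a short RNA that is cut from a hairpin precursor and guides repression of mRNAs, which it recognises mainly through the seed near its 5′ end. miR-26a and miR-26b share their seed and are therefore expected to bind largely the same mRNAs. They lie within introns of genes of the CTDSP family, small phosphatases that act with the REST repressor, which keeps neuronal genes silent outside neurons, and miR-26 is known for repressing CTDSP2 and the histone methyltransferase EZH2. In rodent liver miR-26a is known for a role in insulin sensitivity and glucose production. In the RefSeq gene table of the ARS-UCD2.0 assembly, MIR26A-1 (gene identifier 100313309) lies inside CTDSPL, MIR26A-2 (790971) inside CTDSP2 and MIR26B (790985) inside CTDSP1. The entry MIR26C (100498843) has the same start and end as MIR26A-1, and the table gives no strand. Reads had been mapped to another assembly, ARS-UCD1.2, and positions are therefore left out. The single value of miR-26a therefore covers 2 precursor loci, whose parts cannot be told apart.

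Levels are in CPM, counts per 1000000 reads, and the deposited values had the form of CPM with a further scaling factor for each library, as edgeR's TMM method gives. The reads behind them were recovered from the worth of 1 read in each library. The number of miRNA reads lay between 6291376 and 21083250 per library, in a shallower class of 21 libraries (12 HI, 9 MOD) and a deeper class of 9 (3 HI, 6 MOD). Calf A37824 of the HI diet stood apart by the highest level of miR-375, a miRNA of endocrine cells that is abundant in the pituitary, and the diet differences and the correlation of the members are also given without it. Markers of neurons were present in every library. Their 8 miRNAs summed to between 18770 and 96230 CPM in HI and between 25736 and 92035 CPM in MOD. Both miR-124a and miR-124b count in these sums, although their means and SDs were the same in each diet.

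bta-miR-26a was the most abundant miRNA of the ARC by mean level, with a mean of 145317 ± 38541 CPM (SD, n = 30). It ranked first in 21 of the 30 libraries and second in the other 9. In 7 of those 9 the first rank was held by miR-143, a miRNA of vascular smooth muscle, and in 2 by miR-181a. The lowest value in HI was 96110 CPM in calf A93744, the median was 149620 CPM and the highest was 221767 CPM in calf A27848. In MOD the lowest value was 90061 CPM in calf A38765, the median was 131572 CPM and the highest was 227860 CPM in calf A97821. The ranges of both diets thus overlapped over nearly their whole length. As a share of counted reads, miR-26a took from 8.63% in calf A17855 (95% Clopper-Pearson interval 8.62 to 8.65) to 20.7% in calf A27848 (interval 20.66 to 20.71). These intervals cover counting error only and are far narrower than the distance between calves. Its level exceeded that of miR-143, next in the order with 108756 ± 66768 CPM (SD, n = 30), in 23 of 30 libraries. The mean difference was 0.61 ± 0.84 on the log2 scale (SD, n = 30), a description, since neighbours were taken from the order of the mean levels themselves. The recovered read number of miR-26a was whole in 17 libraries and ended in 0.5 of a read in the other 13, whereas that of miR-26b was whole in all 30. How reads matching both precursor loci were divided is not given in the sources used here.

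bta-miR-26b, from the single locus in CTDSP1, was far less abundant, with a mean of 7253 ± 2374 CPM (SD, n = 30). It was 29th in the order of mean levels and ranked between 23rd and 36th in single libraries. In HI the lowest value was 4762 CPM in calf A81983, the median was 6560 CPM and the highest was 15101 CPM in calf A37824. In MOD it ran from 5301 CPM in calf A61973 through a median of 6132 CPM to 11461 CPM in calf A73759. Values crowded at the low end of both diets, and a few calves of each stood well above. Its share of counted reads lay between 0.570% in calf A81983 (95% Clopper-Pearson interval 0.565 to 0.575) and 1.06% in calf A37824 (interval 1.05 to 1.06). Its neighbours in the order were miR-103, a miRNA hosted by pantothenate kinase genes, with 7258 ± 726 CPM, and miR-660 with 6945 ± 867 CPM (SD, n = 30 each). Because they were taken for their nearness in mean level, the permutation tests made against them (p = 0.552 and p = 0.872) and against miR-143 (p = 0.00056), adjusted over 3 to p = 0.828, 0.872 and 0.00168, carry no weight. miR-26b was above miR-103 in 9 of 30 libraries and above miR-660 in 15 of 30, with mean log2 differences of -0.05 ± 0.49 and 0.01 ± 0.45 (SD, n = 30).

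bta-miR-26c had no read in any of the 30 libraries and was 1 of 167 miRNAs in the table at 0 throughout. A count of 0 allows up to 3 reads per library, or between 0.142 and 0.477 per 1000000 reads counted, depending on depth. Against this floor, miR-26a was at least 244991-fold higher in every library. MIR26C and MIR26A-1 share their position in RefSeq, but no strand is given and mature sequences were not used here. Whether any read could match both is therefore not known. The 0 and this bound hold for reads as counted and not for the molecule. No test was possible for miR-26c, and all further results are for miR-26a and miR-26b, the 2 of 3 members that passed the filter on low values.

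**Figure D1:**
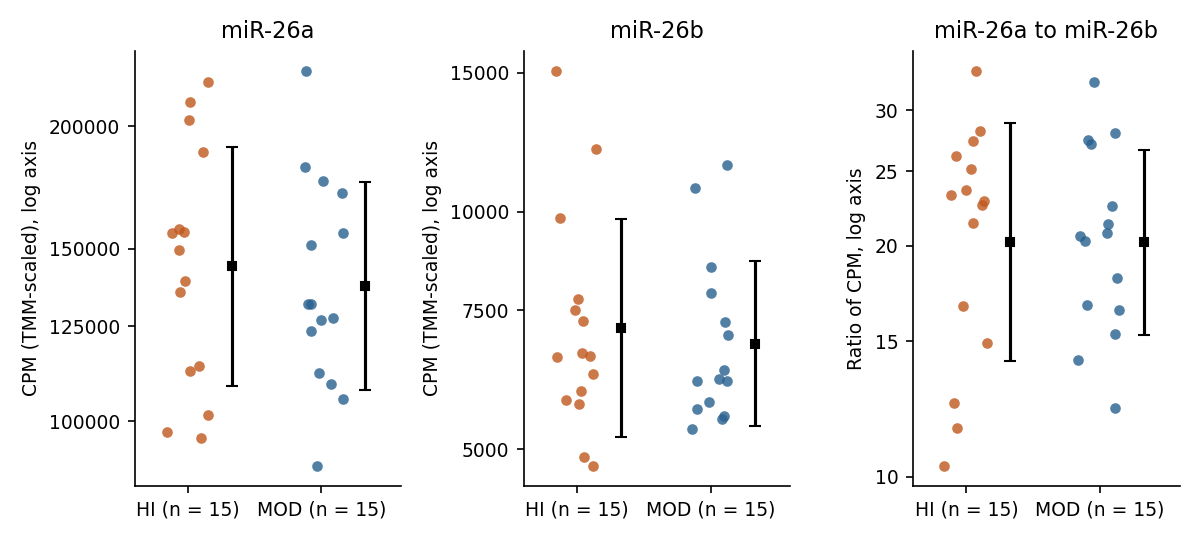
Levels of miR-26a and miR-26b (deposited CPM, of the form of TMM-scaled values) and their ratio in each calf on the HI and MOD diets (n = 15 each), on log axes. Points are calves, and squares with bars are the mean and SD of the log2 values. The diets overlap in all 3 panels.

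The diets did not differ in either member beyond the spread between calves. Mean levels of miR-26a were 149255 ± 41760 CPM in HI and 141379 ± 36054 CPM in MOD (SD, n = 15 each). Its log2 fold change of HI against MOD, on the log2(CPM + 0.25) scale, was 0.07 (standard error 0.14, adjusted p = 0.984 from limma with Benjamini-Hochberg adjustment). The 95% interval of the difference ran from -0.21 to 0.34 on the log2 scale, or from 0.865 to 1.27 as a fold, so that it did not reach the fold change of 1.5 set by the study as threshold in either direction. A two-sided permutation test gave p = 0.632 (adjusted over 3 measures p = 0.990). The MOD median was exceeded by 10 of the 15 HI calves, and the HI median by 6 of the 15 MOD calves.

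For miR-26b the means were 7499 ± 2814 CPM in HI and 7006 ± 1904 CPM in MOD (SD, n = 15 each). HI differed from MOD by 0.06 on the log2 scale (standard error 0.14, limma, adjusted p = 0.984), with a 95% interval from -0.23 to 0.36, or from 0.852 to 1.28 as a fold. The permutation test gave p = 0.672 (adjusted over 3 measures p = 0.990), and again 10 HI calves lay above the MOD median and 6 MOD calves above the HI median. Across all 476 tested miRNAs, 0% passed an adjusted p of 0.1 together with a fold change of 1.5 in limma, and 21 (4.41%) had an unadjusted p under 0.05, neither member among them. This number was 10 with library size only and with a term for the 9 lowest animal codes, and 29 with a term for the score of pituitary markers. The call count was also 0 in edgeR's quasi-likelihood test and 1, not a member of the family, in DESeq2's Wald test, both on the recovered reads.

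The direction of these small differences was not stable. With the 9 calves of the lowest animal codes (7 HI, 2 MOD) as a term in limma, the log2 fold change became -0.0084 for miR-26a and -0.10 for miR-26b (adjusted p = 0.999 each). The labels give these codes no meaning. In this class, miR-26b had a median of 7898 CPM (6560 to 15101, n = 9), against 6098 CPM (4762 to 11461, n = 21) in the other calves. This class also held 3 of the 5 libraries highest in miR-375 (A17855, A31979 and A37824), with a mean of 10854 ± 16627 CPM of miR-375 (SD, n = 9) against 3646 ± 7180 CPM (SD, n = 21), and the part of pituitary cells in this difference was not tested. Without HI calf A37824 the log2 fold change of miR-26b was -0.013 and that of miR-26a 0.04 (limma, adjusted p = 0.994 for both). Within the lowest codes the diets differed by 0.17 for miR-26a and 0.12 for miR-26b (exact permutation tests, p = 0.556 and p = 0.944), and within the other codes by -0.07 and -0.17 (exact permutation tests, p = 0.701 and p = 0.241, n = 8 HI and 13 MOD). Within the shallower libraries the differences were 0.15 and 0.14 on the log2 scale (exact permutation tests, p = 0.347 and p = 0.513), and within the deeper ones -0.03 and -0.09 (exact permutation tests, p = 0.929 for both). The effect of diet did not differ measurably between these classes, with unadjusted p-values of limma's interaction term between 0.359 and 0.560.

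**Figure D2:**
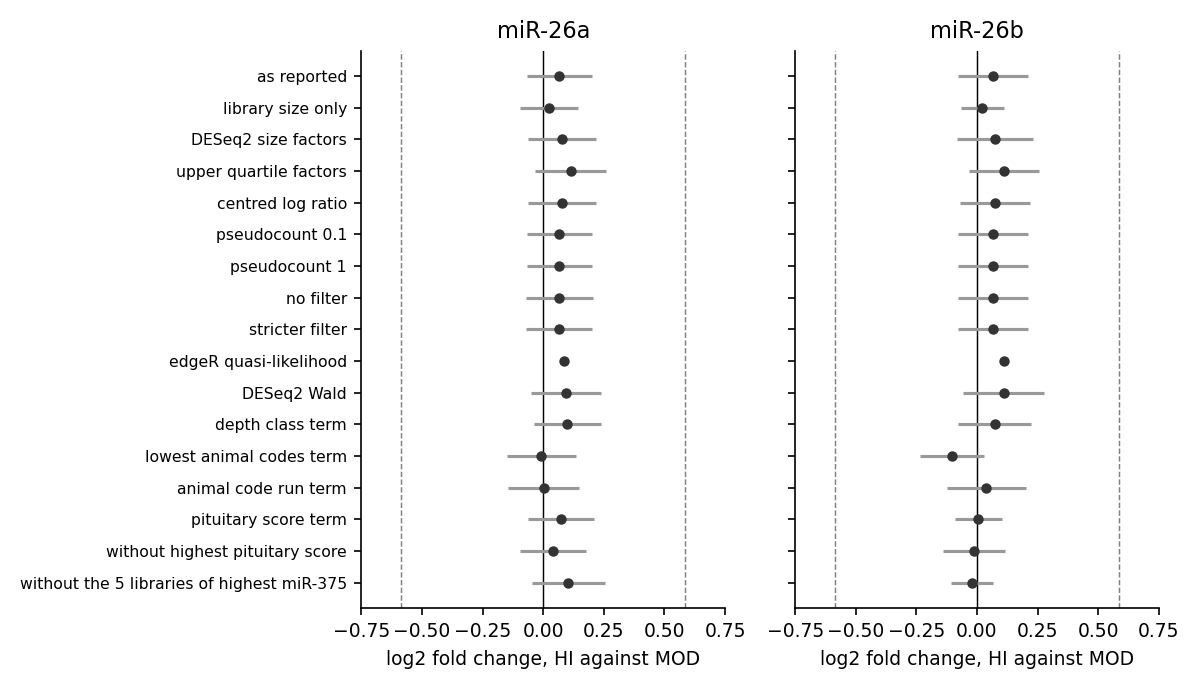
Log2 fold change of HI against MOD for miR-26a and miR-26b as reported and under 16 other settings. Bars are standard errors, absent for edgeR, and dashed lines mark the fold change of 1.5 that the study used as threshold. All values lie between -0.10 and 0.11. Both members change sign with a term for the lowest animal codes, and miR-26b also without the libraries of highest pituitary markers.

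The proportion of the 2 family members is a measure that no library size or scaling factor can change. miR-26a exceeded miR-26b in all 30 libraries, by 10.3 times in calf A17855 to 33.8 times in calf A27848, both on the HI diet, with a median of 21.4. In HI the mean ratio was 21.4 ± 6.81 and in MOD 20.9 ± 5.79 (SD, n = 15 each). The difference in the mean log2 ratio was 0.0015 (permutation test, p = 0.990, adjusted over 3 measures p = 0.990). Within the shallower and the deeper libraries it was 0.01 and 0.06 (exact permutation tests, p = 0.943 and p = 0.857). Within the lowest codes it was 0.06 and within the others 0.11 (exact permutation tests, p = 1.00 and p = 0.531). The ratio thus varied 3.27-fold between calves of the HI diet while the means of the diets were nearly equal.

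High levels of miR-26b coincided with high levels of miR-375, the endocrine miRNA named above. The 5 libraries highest in miR-26b were also the 5 highest in miR-375. In calf A37824 (HI), 15101 CPM of miR-26b stood beside 47575 CPM of miR-375. In calf A31979 (HI) the values were 12022 and 20624 CPM, in A73759 (MOD) 11461 and 23507 CPM, in A41971 (MOD) 10730 and 25453 CPM, and in A17855 (HI) 9819 and 23902 CPM. The next highest miR-26b was 8504 CPM in calf A21978, and the next highest miR-375 was 6845 CPM in calf A57867. As a share of counted reads, too, these 5 libraries were the highest in miR-26b, at 0.836% to 1.06% against 0.801% in the next. For miR-26a the same 5 libraries lay across the range, from 101401 CPM in A17855 to 188241 CPM in A37824, and 1 of them was among the 5 highest. These libraries also held 4 of the 5 lowest ratios of miR-26a to miR-26b. The ratio did not follow miR-375 throughout, since A12937 (1047 CPM of miR-375) and A47858 (284 CPM) had ratios of 14.2 and 14.9, below the 15.3 of A73759, and A42931 (4685 CPM) had one of 28.2. No test of the ratio against miR-375 was made.

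miR-375 belongs to a list of 10 miRNAs of pituitary and epithelial cells, of which 8 were tested. Its members include miR-7, miR-141, miR-182, miR-183 and the miR-200 family, and miR-200b and miR-96 were at 0 in 1 and 2 libraries. The list summed to between 2325 and 100739 CPM in HI and between 2289 and 84373 CPM in MOD. On the mean log2 value of its tested members, the libraries fell into 9 with a higher score (5 HI, 4 MOD) and 21 with a lower score (10 HI, 11 MOD). In the 21, miR-26b kept within 4762 to 7898 CPM, or 0.570% to 0.748% of reads, and in the 9 it ran from 5767 to 15101 CPM, or 0.646% to 1.06%. miR-26a took 10.3% to 20.7% of reads in the 21 and 8.63% to 18.2% in the 9. The ratio of both members ranged from 14.2 to 33.8 in the 21 and from 10.3 to 28.2 in the 9. These classes were made from the data after seeing it and were not compared by a test. With the list's score as a term in limma, the log2 fold change between the diets was 0.07 for miR-26a and 0.0061 for miR-26b (adjusted p = 0.934 and p = 0.992). All 8 tested members of the list had a value above 0 for HI against MOD, with a median log2 fold change of 0.64, and 0 of them passed the thresholds. Some markers of other cells also stood apart in some of the 5 libraries highest in miR-375. Of the 5 libraries, 4 were the highest of all 30 in miR-143, the smooth muscle miRNA, with 313867 CPM in A41971, 238738 CPM in A37824, 206756 CPM in A17855 and 191922 CPM in A31979, while A73759 had 125142 CPM. In calf A37824 the summed markers of neurons (18770 CPM), oligodendrocytes (1425 CPM), erythroid cells (21182 CPM) and liver (45.2 CPM) were the lowest of all 30 libraries. Its sums for ependyma and choroid plexus (31645 CPM, median of all 31233) and leukocytes (1175 CPM, median 1427) were at no extreme. The vessel sum (265524 CPM) was the highest of the HI calves, but 238738 CPM of it was miR-143. The endothelial miR-126-3p of that list had 2340 CPM there, against a mean of 2286 CPM over all libraries. It had 1668 CPM in A17855, 1795 CPM in A31979, 2478 CPM in A41971 and 3180 CPM in A73759. The part of any of these cells in the level of miR-26b was not tested.

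**Figure D3:**
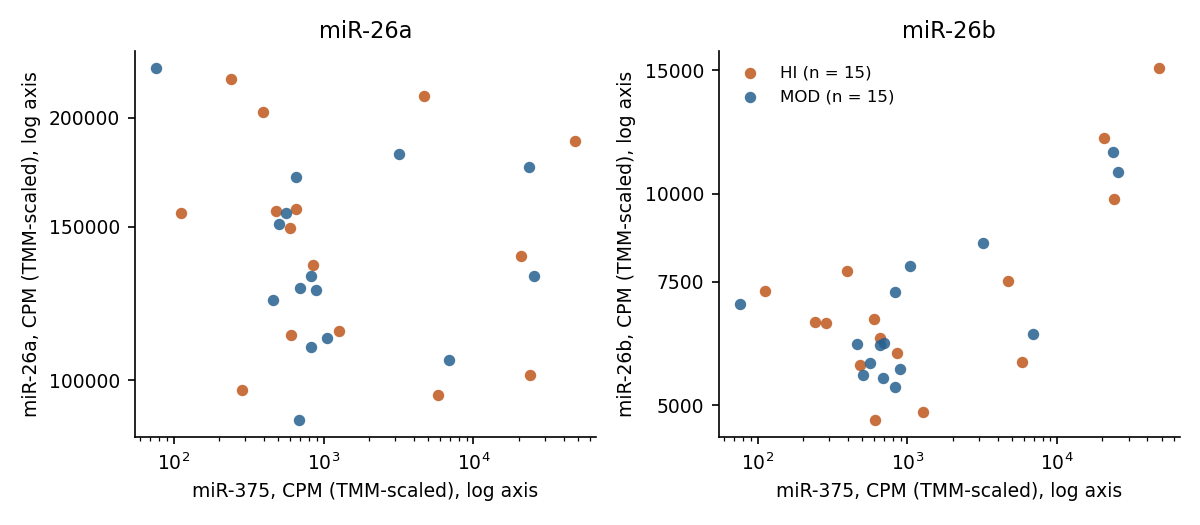
Level of miR-26a and of miR-26b against that of miR-375 in the 30 libraries (deposited CPM, of the form of TMM-scaled values, log axes), coloured by diet. The 5 libraries from 20624 CPM of miR-375 upwards hold the 5 highest values of miR-26b, from 9819 to 15101 CPM, and spread over the range of miR-26a.

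Whether both members rose and fell together between calves depended on the scaling. On the deposited values Pearson's r of their log2 levels was 0.322 (permutation test, p = 0.0856) and Spearman's rho was 0.395 (permutation test, p = 0.0318), n = 30. Without the 2 calves farthest from the median of miR-26a, r was 0.385 (permutation test, p = 0.0438). Without calf A37824 r was 0.253 (permutation test, p = 0.188) and rho 0.349 (permutation test, p = 0.0643), n = 29, so that the rank correlation no longer passed 0.05. As shares of counted reads, with no scaling factor, the sign turned, with r = -0.275 (permutation test, p = 0.145) and rho = -0.315 (permutation test, p = 0.0900). The total of the deposited values differed up to 1.73-fold between libraries, and it rose with the share of miR-26b (Spearman's rho 0.521 over 30 libraries, a description). Within the 21 libraries of lower pituitary score r was 0.417 (permutation test, p = 0.0612), and within the 9 of higher score 0.454 (exact permutation test, p = 0.214). Within the deeper libraries r was 0.343 (exact permutation test, p = 0.398, n = 9) and within the shallower ones 0.332 (permutation test, p = 0.148, n = 21). It was -0.125 within the lowest animal codes (exact permutation test, p = 0.734, n = 9) and 0.401 within the others (permutation test, p = 0.0835, n = 21). Only this pair of members could be related, since miR-26c had no read.

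**Figure D4:**
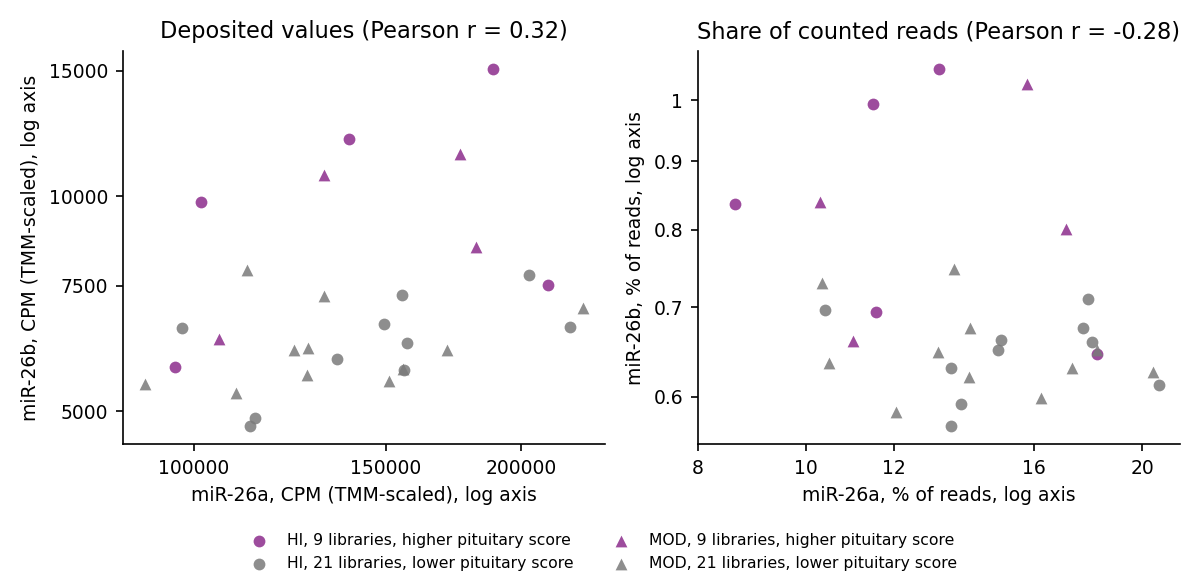
miR-26b against miR-26a in the 30 libraries, as deposited CPM on the left and as percent of counted reads on the right, on log axes. Circles are HI and triangles MOD calves, and colour marks the 9 libraries with a higher pituitary marker score. Pearson's r is 0.32 on the left and -0.28 on the right.

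The spread between calves of both members was ordinary on the deposited values. The SD of the log2 level was 0.37 for miR-26a and 0.40 for miR-26b, against a median of 0.37 over the 476 tested miRNAs. Of the other tested miRNAs, 51.8% had a smaller SD than miR-26a and 59.4% a smaller one than miR-26b. With library size only, the SD of miR-26a was 0.33 and that of miR-26b fell to 0.23, where 9.68% of the other miRNAs had a smaller one and the median was 0.45. Among the 41 miRNAs above 5000 CPM, miR-26b moved in the same way, from 70.0% to 35.0% with a smaller SD, while miR-26a stayed at 62.5%.

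**Figure D5:**
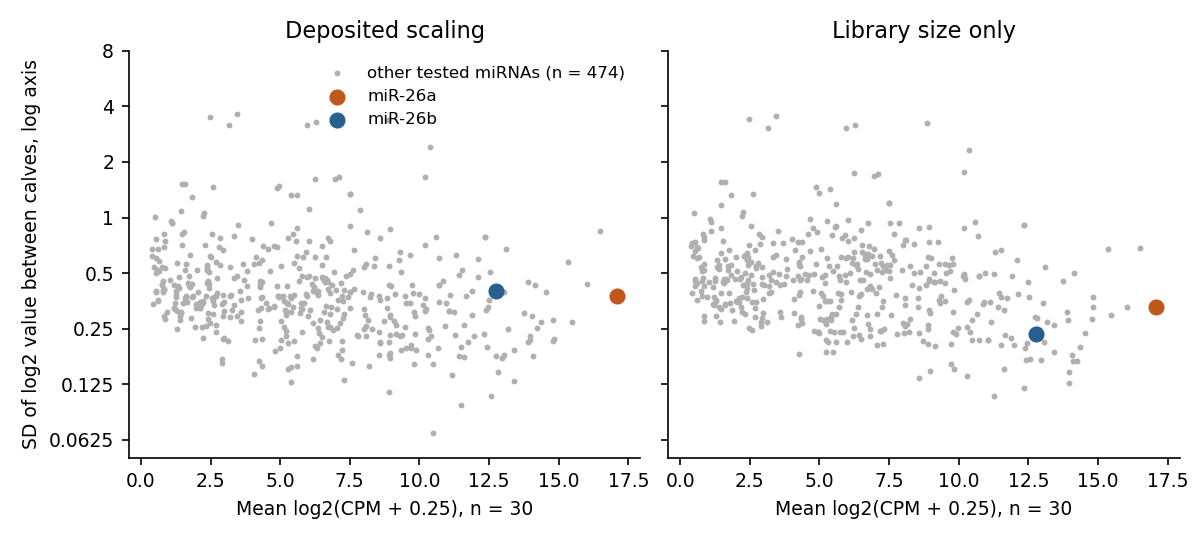
SD of the log2 level between the 30 calves (log axis) against the mean log2(CPM + 0.25) of the deposited values for the 476 tested miRNAs. The SD is on the deposited scaling on the left and by library size only on the right. miR-26a lies at 0.37 and 0.33, and miR-26b at 0.40 and 0.23.

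The miRNAs whose levels were most like those of each member were taken as the 5 with the highest Pearson's r of log2 levels over the 30 libraries, among the 474 tested miRNAs outside the family. For miR-26a the first was miR-126-3p, an endothelial miRNA from the EGFL7 gene, with r = 0.777. It ranged from 1193 to 4041 CPM, and r was 0.766 in the 21 libraries of lower pituitary score and 0.807 in the 9 of higher score. With library size only r was 0.725, the second highest. miR-98, a member of the let-7 family, followed with r = 0.661, and it came first with library size only (r = 0.736). miR-10174-3p (r = 0.594) and miR-23b-3p (r = 0.592) came next. Their values differed by less than 1% of each other in every library (ratio 1.005 to 1.009), so they are not separate evidence, and how reads were divided between them is uncertain. The other arm of the miR-126 precursor, miR-126-5p, was the fifth with r = 0.549. With library size only these last 3 dropped to r = 0.392, 0.390 and 0.290.

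For miR-26b the 5 were others, with r between 0.888 and 0.963 on the deposited values. The first was let-7i, with r = 0.963, at 4926 to 15771 CPM. The relation was also the closest with library size only (r = 0.899), and it was 0.818 in the 21 libraries of lower pituitary score and 0.991 in the 9 of higher score. Of the let-7 family, let-7f was also among the 5 (r = 0.888), but with library size only its r was 0.297. miR-25, from an intron of MCM7, had r = 0.926 (0.788 with library size only), and miR-151-3p, from an intron of PTK2, had r = 0.919 (0.754). miR-148a had r = 0.896 over all libraries (0.849 with library size only) but 0.397 in the 21 of lower pituitary score, against 0.939 in the other 9. For miR-26a, let-7i was 67th in the order (r = 0.274), and with library size only its r was -0.327. None of the 10 miRNAs named here passed the test between diets, with adjusted p-values from limma of 0.982 to 0.984 and log2 fold changes between -0.09 for miR-126-3p and 0.14 for miR-151-3p.

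A pair of lists of other miRNAs were set beside the family. The first held miRNAs of the neuronal circuit around REST, the repressor with which the host genes of miR-26 act. All 17 found in the table were tested, and 0 passed the thresholds. At an unadjusted p under 0.05, 2 were lower and 0 higher in HI, against 2.73% and 1.68% of all 476. These 2 were miR-29a and miR-29c, closely related members of 1 family. Also in the list, miR-124a and miR-124b had the same means, SDs and log2 fold change (-0.07) and are not separate evidence. With both counted, the median log2 fold change of the list was -0.12, against -0.0022 over all tested miRNAs. Of the 17 values, 14 were below 0. The smallest p among them belonged to miR-29a, a miRNA known for repressing collagens and DNA methyltransferases. Its level was 2617 ± 344 CPM in HI and 2896 ± 245 CPM in MOD (SD, n = 15 each, log2 fold change -0.15, standard error 0.06, adjusted p = 0.912 from limma). The highest value above 0 was that of miR-212 at 0.04 (adjusted p = 0.984 from limma). The list shares members with the 8 neuronal markers. Of these 8, 7 were below and 1 above 0, with a median of -0.11, again with both miR-124a and miR-124b counted. The part of neuronal content in these values was not tested.

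The second list held miRNAs known in insulin signalling and in glucose or lipid metabolism, of which 20 of the 21 in the table were tested and 0 passed the thresholds. At an unadjusted p under 0.05, 4 were lower and 0 higher in HI, against 2.73% and 1.68% of all 476. They were miR-145, miR-33b and the same miR-29a and miR-29c. The median log2 fold change was 0.02, with 12 values above and 8 below 0. The smallest p was that of miR-145, a smooth muscle miRNA, with 572 ± 194 CPM in HI and 789 ± 252 CPM in MOD (SD, n = 15 each, log2 fold change -0.46, standard error 0.16, adjusted p = 0.878 from limma). It is also 1 of the 4 vascular markers, all of which had values below 0, with a median log2 fold change of -0.18, and the part of vessels in its value was not tested. Among values above 0 the smallest p was that of miR-378, hosted by PPARGC1B, with 998 ± 129 CPM in HI and 916 ± 113 CPM in MOD (SD, n = 15 each, log2 fold change 0.12, standard error 0.07, adjusted p = 0.912 from limma). miR-29a, miR-29b and miR-29c were in both lists, and both lists were chosen with earlier results of these data known.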

How the data were processed

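Small RNA libraries of the ARC were sequenced for 30 calves, 15 HI and 15 MOD by the sample labels. The authors removed adapters and reads outside 15 to 28 bases (Cutadapt), discarded other classes of short RNA, aligned with Bowtie to ARS-UCD1.2 and quantified miRBase entries in miRDeep2. The deposited signal values are decimals with the form of TMM-scaled CPM, and their normalization is not given in the sources used here. The worth of 1 read was recovered per library, and 94.5% to 97.9% of values under 200 reads were whole within 0.02 of a read. Values were rounded to whole reads for filterByExpr, which kept 476 miRNAs, and for the count tests. On these reads edgeR called 0 miRNAs.

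The main test was limma with a variance trend on log2(CPM + 0.25), fitted on all 476 miRNAs. Permutation tests were two-sided with 100000 resamples, or exact where a group held fewer than 10 calves. The code was tested on simulated counts. The named miRNAs were the members, their neighbours by mean level, the 5 miRNAs most like each by Pearson's r, and of each list the smallest p in each direction. The members, lists and animal code class were chosen with earlier results of these data known. Alternatives covered scaling, pseudocount, filter, test, terms for depth class, animal codes and pituitary score, and left-out calves. The labels name no batch. Levels of different miRNAs were compared in CPM, since mature miRNAs are of similar length. Mature sequences and the mRNA and protein data were not used here. P-values measure the spread between calves, 1 library each, and depth is the number of reads counted on miRNAs.

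Versions were limma 3.58.1, DESeq2 1.42.0 and edgeR 4.0.16 under R 4.3.3, and scipy 1.17.1 under Python 3.11.15.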

Additional observations from a re-analysis of the deposited data

How the results depend on the processing

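No paired analysis was possible because each calf belonged to 1 diet and the labels give no number that links calves. The direction of miR-26a reversed in 1 of 16 settings, of which 1 leaves out the calf of the highest pituitary score, HI calf A37824, when a term marked the 9 calves of lowest code (log2 fold change -0.0084). That of miR-26b reversed in 3, with the same term (-0.10), without that calf (-0.013) and without the 5 libraries of highest miR-375 (-0.019, chosen after seeing the data). No setting gave either member a call. Leaving out each calf in turn gave log2 fold changes of 0.02 to 0.12 for miR-26a and -0.013 to 0.12 for miR-26b, the lowest being again that without A37824. DESeq2's Wald test called 1 miRNA where limma called 0, and without 1 calf limma called 0 to 1, with 1 call without HI calf A77860 or MOD calf A97854. A term for the 5 runs of the last digits of the animal code, for which calf A38765 alone forms 1 run and adds nothing, gave 0.0027 for miR-26a and 0.04 for miR-26b.

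The log2 ratio of miR-26a to miR-26b between the diets, 0.0015 as reported, reversed within the libraries of higher pituitary score (-0.13, chosen after seeing the data) and within both runs of code digits with enough calves of each diet (-0.35, n = 2 HI and 5 MOD, and -0.19, n = 8 HI and 7 MOD). It lay between -0.051 and 0.071 without each calf in turn. The correlation of the members reversed with library size only (-0.275) and within the lowest codes (-0.125), and it passed an unadjusted p of 0.05 with DESeq2's size factors (0.398), upper quartile factors (0.370) and without the 2 farthest calves (0.385), while without A37824 it was 0.253. The cause was not tested. Correlations with miR-26c could not be run, since it had no read. Depth limits what can be said of miR-26c, and whether any read could match both it and the miR-26a locus at the same position is not known.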

Other observations

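The miRNAs with the lowest correlation to each member are named here after their values were seen. Over the 30 libraries Pearson's r of log2 levels was -0.751 between miR-26a and miR-331-5p (28.4 to 48.3 CPM) and -0.926 between miR-26b and miR-628 (67.3 to 195.7 CPM). With library size only these were -0.290 and -0.765. Within the 21 libraries of lower pituitary score they were -0.721 and -0.724, and within the other 9 they were -0.854 and -0.938. All are descriptions over libraries that share scaling factors.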
